A study of Homo sapiens with 6 samples.

Results

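The genes described here encode the proteins that bind N6-methyladenosine (m6A) in RNA, called readers, and the enzymes that remove it, called erasers. They are 10 genes: the YTH domain readers YTHDF1, YTHDF2, YTHDF3, YTHDC1 and YTHDC2, the readers IGF2BP1, IGF2BP2 and IGF2BP3, and the demethylases FTO and ALKBH5. Their m6A peaks were taken from 3 deposited peak lists as the peaks whose centre lay in the gene's hg19 window, on the gene's strand. This gave 54 of 61147 peaks, namely 21 of 21286 in MeRIP 1, 14 of 19851 in MeRIP 2 and 19 of 20010 in MeRIP 3. Same-strand peaks with 1 bp or more in common were joined, which left 23 of 25737 regions.

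Each list came from 1 repeat of methylated RNA immunoprecipitation sequencing (MeRIP-seq) on wild-type HEK293T cells, an established cell line of human embryonic kidney origin that expresses the large T antigen of the virus SV40. In this assay an antibody pulls down RNA fragments with m6A, and this IP library is set against an input library of the same RNA. There were 6 libraries in all, an IP and an input for each of MeRIP 1, MeRIP 2 and MeRIP 3, and no treated or mutant cells. Peak lists hold no expression levels, so the line was not checked against marker genes. Nothing in the labels says that the repeats were separate cultures, so the spread between lists may be technical.

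m6A is written onto mRNA mostly in the nucleus by the METTL3 and METTL14 methyltransferase complex, and is known to be dense in long internal exons and around stop codons. Readers of the YTH family hold the methylated base in an aromatic pocket. The IGF2BP proteins bind RNA through KH domains and are known to stabilise methylated mRNAs. FTO and ALKBH5 are iron-dependent and oxoglutarate-dependent dioxygenases that take the methyl group off, so these genes make up the machinery that reads and reverses the mark, here looked at as carriers of it.

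The value given for each peak is the score the authors' peak caller wrote, which starts at 50. Of all peaks 10645 share the value 3100 and 280 score slightly higher, while no member peak exceeds 3100. Its values look like a negative log10 p-value times 10, as MACS writes it, though no header says so. Read that way, a higher score means firmer enrichment of IP over input. The amount of the RNA and the length of the peak can raise it as methylation can, and these cannot be told apart here. Scores of 3100 or more were set to 3100, called the ceiling below, and equal scores there do not show equal methylation. Differences between genes were not tested. Each list scores every gene, so genes are paired over the lists, and a two-sided sign test over 3 lists cannot reach a p below 0.25. Even with the pairing ignored, 3 lists against 3 cannot reach an exact permutation p below 0.1.

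Of the 10 genes, 9 had a region in at least 1 list and 8 had a region in all 3 lists. YTHDC2 had a region in MeRIP 1 and MeRIP 3 only, and IGF2BP3 had none in any list. Of the 23 regions, 13 (56.5%) had a peak in all 3 lists, beside 59.3% of all regions in the series. Another 5 (21.7%) were in 2 lists, beside 17.9% of all regions, and 5 (21.7%) were in 1 list alone, beside 22.8%. Once listed, regions of the reader and eraser genes were thus in all 3 lists about as often as regions of the series. A gene with no peak, such as IGF2BP3, does not enter this share. The share of genes with a region was not worked out for the series.

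Scores at the ceiling were more frequent. In 7 of the 23 regions (30.4%) the score was at the ceiling in all 3 lists, beside 11.2% of all regions. These 7 regions lay in 6 genes, namely YTHDF1, YTHDF2, YTHDF3, YTHDC1, IGF2BP1 and ALKBH5, with 2 of them in YTHDC1. Among regions in all 3 lists the share was 53.8% (7 of 13), beside 18.9% in the series. The genes were picked for their role and not at random, and no test of this difference was made. The median score of the member peaks was 568 in MeRIP 1, 2838 in MeRIP 2 and 706 in MeRIP 3, beside 420, 422 and 443 for all peaks. The median was above that of its list each time. Its large value in MeRIP 2 goes with the 14 peaks listed there, of which 7 were at the ceiling. Among peaks of at most 1000 bp the differences were smaller in score units, though as a ratio that of MeRIP 3 was not. The member medians were 301 in MeRIP 1, 625 in MeRIP 2 and 495 in MeRIP 3, beside 282, 280 and 298 for all such peaks.

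**Figure D1:**
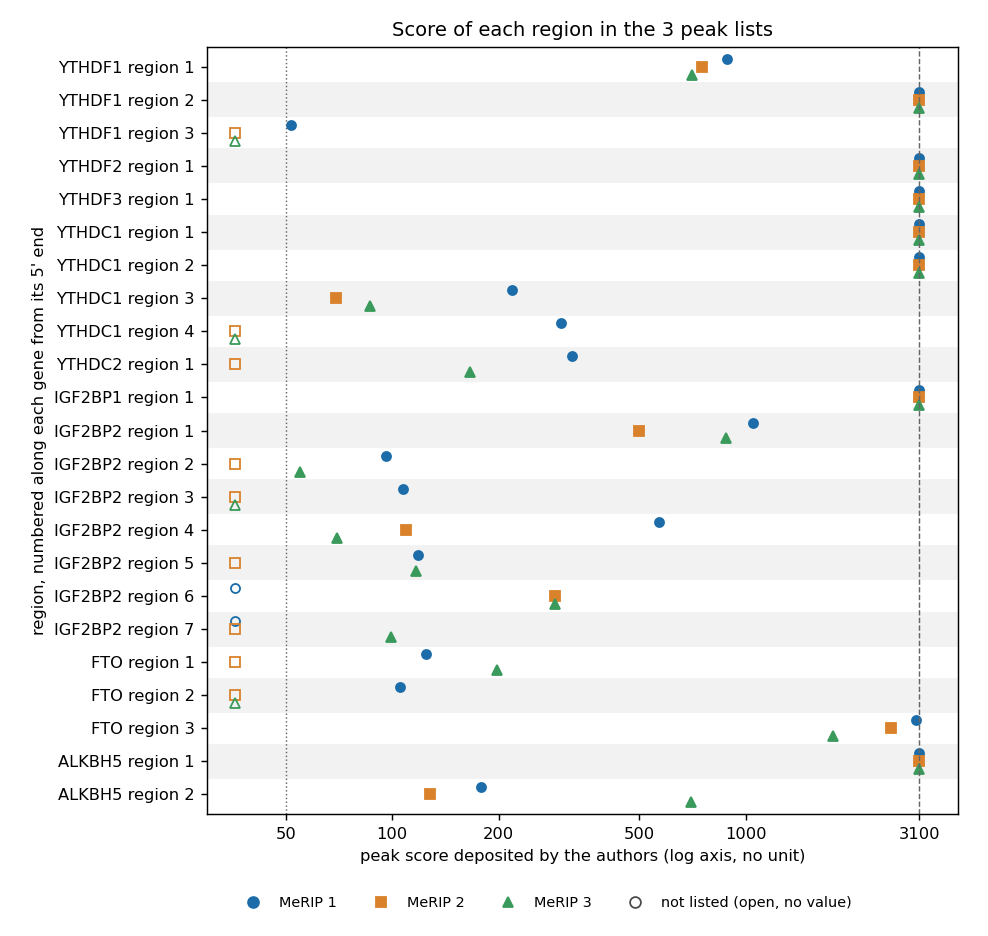
Score of each of the 23 regions in MeRIP 1, MeRIP 2 and MeRIP 3 on a log axis, with regions numbered along each gene from its 5′ end; an open mark at the left means that the list holds no peak there, the dotted line is the lowest deposited score of 50 and the dashed line the ceiling of 3100. Of the 23 regions, 7 sit at the ceiling in every list, and those of IGF2BP2 spread between 54.99 and 1049.

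The YTHDF proteins are cytoplasmic readers. YTHDF2 is known to bring methylated mRNAs to the CCR4-NOT deadenylase for decay, YTHDF1 has been linked to their translation, and YTHDF3 works beside both. Each of the 3 genes carried 1 long region at the ceiling in every list. In YTHDF1 it lay at chr20:61833639-61835159 on the minus strand (hg19) and was 1521 bp long. The region of YTHDF2 lay at chr1:29068915-29070498 on the plus strand and was 1584 bp long. That of YTHDF3, at chr8:64098706-64100303 on the plus strand, was 1598 bp long. The 3 lengths were close to one another, and each region had the same first and last base in MeRIP 1, MeRIP 2 and MeRIP 3.

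Such regions were uncommon in the series. Only 4.05% of regions in all 3 lists (618 of 15265) were 1500 bp or longer, at the ceiling in all 3 lists and identical at both edges, against 3 of the 13 member regions in all 3 lists (23.1%), 1 in each YTHDF gene. The limit of 1500 bp was chosen with earlier results of these data known. It lies just under the 3 YTHDF widths, and the ALKBH5 region, at the ceiling with identical edges, misses it at 1461 bp. The contrast with the series thus describes these regions and tests nothing. By width alone the 3 YTHDF regions were less unusual. Of the member regions in all 3 lists 23.1% were at least 1500 bp long, beside 20.1% in the series, and 80.2%, 81.3% and 81.6% of the regions in all 3 lists were narrower than those of YTHDF1, YTHDF2 and YTHDF3. All 3 lay inside the gene and away from both ends: their centres were at 63.4% of the window of YTHDF1, at 19.8% of that of YTHDF2 and at 41.6% of that of YTHDF3, counted from the 5′ end. The paralogs are known to carry most of their coding sequence in a long internal exon. No hg19 exon annotation was used here, so whether the regions are that exon was not tested.

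YTHDF2 and YTHDF3 had no other region in any list. YTHDF1 had a second one in all 3 lists, 321 bp long at its 5′ end (chr20:61847218-61847538), which scored 883 in MeRIP 1, 752 in MeRIP 2 and 706 in MeRIP 3. Its highest score was 1.25 times the lowest, the smallest spread among the 6 member regions that stayed below the ceiling in all 3 lists. The remaining YTHDF1 peak lay 986 bp from the 3′ end of the window, at chr20:61827766-61828086. Its score was 51.8 in MeRIP 1, just above the lowest score listed, and MeRIP 2 and MeRIP 3 held no peak there.

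YTHDC1 is the nuclear YTH reader, known for its part in splicing and in the export of methylated mRNA. It had 4 regions, of which the 2 nearer its 5′ end were at the ceiling in all 3 lists. The first, chr4:69215444-69215824 on the minus strand, was 381 bp long and began at the 5′ edge of the window itself. The second, chr4:69202745-69203168, was 424 bp long and lay 12275 bp further downstream. Both had identical edges in the 3 lists.

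Toward the 3′ end of YTHDC1 the scores were much lower and less even. A region at chr4:69181573-69182166 scored 218 in MeRIP 1, 69.2 in MeRIP 2 and 86.7 in MeRIP 3, a 3.14-fold spread with MeRIP 1 the highest. It was also the 1 member region in all 3 lists whose edges differed: the peak was 334 bp long in MeRIP 1 and MeRIP 2 and 594 bp in MeRIP 3, where it reached 260 bp further downstream. The last region, chr4:69179114-69180041, was 928 bp long and was listed in MeRIP 1 alone, with a score of 301. Both weak regions lay near the 3′ end of the window, 5473 and 3014 bp from its edge.

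YTHDC2, a YTH protein with an RNA helicase core that is known for its need in meiosis, had the lowest top score of the genes with a peak. Its single region, chr5:112849391-112849779 on the plus strand, was 389 bp long and began 11 bp inside the 5′ edge of the window. The score was 322 in MeRIP 1 and 166 in MeRIP 3, and no peak was listed in MeRIP 2. Of the peaks in those lists, 44.7% and 29.4% scored lower.

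The IGF2BP genes differed in their number of regions, with 1 in IGF2BP1, 7 in IGF2BP2 and none in IGF2BP3. IGF2BP1 had 1 region, chr17:47074774-47075282 on the plus strand, which was 509 bp long, began 4 bp inside the 5′ edge and was at the ceiling in all 3 lists. No peak was listed in the 58225 bp from there to the 3′ edge of its window. IGF2BP3 had no peak in any list over its window of 160267 bp, chr7:23349820-23510086 on the minus strand, and none on the same strand within 10 kb of it. Read depth is unknown from peak lists, so its absence cannot tell an unmethylated RNA from a scarce one or from a peak that was not listed.

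IGF2BP2 had 7 regions, the most of the 10 genes, and none at the ceiling. Its strongest region was again at the 5′ end, chr3:185542571-185542827 on the minus strand, 257 bp long, which scored 1049 in MeRIP 1, 499 in MeRIP 2 and 882 in MeRIP 3. It lay within 2.10-fold over the lists. The next region lay 135155 bp downstream of it, and all of the other 6 were centred at 74.8% of the window or beyond.

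Of those 6 downstream regions of IGF2BP2, 1 was in all 3 lists. It was a short region of 117 bp, chr3:185375074-185375190, which scored 568 in MeRIP 1, 109 in MeRIP 2 and 69.6 in MeRIP 3. This 8.17-fold spread was the widest among the members, with MeRIP 1 far above the other lists, although the edges were identical in all 3. A region of 132 bp, chr3:185367191-185367322, had almost the same score in MeRIP 2 and MeRIP 3, 289 in each, and no peak in MeRIP 1. One of 75 bp, chr3:185369882-185369956, scored 118 in MeRIP 1 and 116 in MeRIP 3. One of 273 bp, chr3:185407143-185407415, scored 95.9 in MeRIP 1 and 55.0 in MeRIP 3. MeRIP 2 listed neither of these last regions, and it had the fewest IGF2BP2 peaks, 3, beside 5 in MeRIP 1 and 6 in MeRIP 3.

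Regions found once in IGF2BP2 were of very unlike size. In MeRIP 1 a 135 bp region, chr3:185404845-185404979, scored 107. In MeRIP 3 a region of 1885 bp, chr3:185361527-185363411, scored 98.9 and ended 7 bp inside the 3′ edge of the window. It was the widest member region and the single one within 150 bp of a 3′ edge.

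FTO, a demethylase of m6A and m6Am whose gene is known for intronic variants linked to body weight, had 3 regions in a window of 410510 bp. The strong one lay far inside the gene, 121906 bp from the 5′ edge, at chr16:53859776-53860403 on the plus strand, and was 628 bp long with identical edges. Its score was 3036 in MeRIP 1, 2575 in MeRIP 2 and 1770 in MeRIP 3, so it stayed just under the ceiling in MeRIP 1 and within 1.72-fold over the lists. Of all regions in all 3 lists, 73.4% had a lower lowest score. The 5′ region of FTO was weak. It covered chr16:53737992-53738141, with a score of 125 in MeRIP 1 and 198 in MeRIP 3 and none in MeRIP 2, and its peak began 26 bp later in MeRIP 3. A peak of 78 bp, chr16:53844052-53844129, was listed in MeRIP 1 alone at a score of 105.

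ALKBH5, the other demethylase, had its signal at the 5′ end. A region of 1461 bp, chr17:18086867-18088327 on the plus strand, began 7 bp inside the 5′ edge and was at the ceiling in all 3 lists with identical edges. It was close in width to the long YTHDF regions, but unlike them it lay at the start of the gene. The second region was short, 81 bp at chr17:18098269-18098349, and among the 6 member regions below the ceiling in all 3 lists it was the 1 whose highest score was not in MeRIP 1. It scored 178 in MeRIP 1, 128 in MeRIP 2 and 701 in MeRIP 3, a 5.46-fold spread between peaks with the same first and last base.

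**Figure D2:**
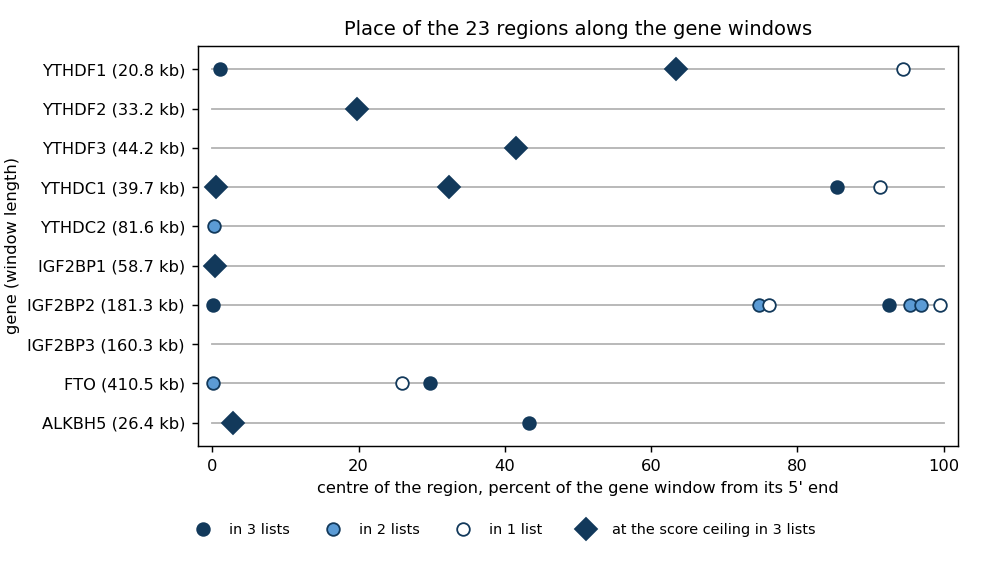
Place of the 23 regions along the 10 gene windows, as the centre in percent of the window from its 5′ end, with the window length in kb beside each gene; dark, light and white marks stand for regions in 3 lists, 2 lists and 1 list, and diamonds for regions at the ceiling in 3 lists. Marks gather at the 5′ end in 7 genes, the IGF2BP3 line is empty, and no diamond lies beyond 63.4%.

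Seen over all 10 genes, 7 regions in 7 genes began within 150 bp of the 5′ edge of the window: those of YTHDF1, YTHDC1, YTHDC2, IGF2BP1, IGF2BP2, FTO and ALKBH5. Of these, 5 were in all 3 lists and 2 in 2 lists, and 3 were at the ceiling throughout. Within 150 bp of a 3′ edge there was 1 region, in 1 list. Up to 33.3% of the window from the 5′ end, 11 regions were centred, 8 of them in all 3 lists. From there to 66.7% there were 3, each in all 3 lists, and beyond it 9, of which 2 were in all 3 lists. No region centred beyond 66.7% was at the ceiling in all 3 lists. The edges are those of the gene windows and not starts mapped in these cells. Percents count genomic bases with introns included, so they do not give places along the mRNA. The same count could not be made for other genes, since no hg19 gene annotation was used, so it was not tested whether this layout is particular to the reader and eraser genes.

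Antibodies to m6A also bind m6Am, a related mark that is placed on a first transcribed adenosine beside the cap and that FTO is known to remove. The bases around the annotated RefSeq starts (GRCh38.p14) are therefore shown for the genes with a region at the 5′ edge. Each run holds the 10 bases before the start and the first 20 bases of the transcript, 5′ to 3′ on the gene's strand, with the first transcribed base in capitals. These starts were not placed on hg19, and IGF2BP1 had no entry.
YTHDF1, chr20:63216112-63216141, minus strand: cgccgctgctGtcgccgccgccgccgccat
YTHDC1, chr4:68350071-68350100, minus strand: agcgcagggcAtttcgggagcgggattgtt
YTHDC2, chr5:113513684-113513713, plus strand: ttacgcccgcGctcctcgcctggccgtgat
IGF2BP2, first start, chr3:185825023-185825052, minus strand: ggcggaggagGaggagagacgagggcagcg
IGF2BP2, second start, chr3:185821123-185821152, minus strand: gaaattagctActtgtactgcaggctaagg
FTO, chr16:53704146-53704175, plus strand: tacgcagcttGcggtggcgaaggcggcttt
ALKBH5, chr17:18183818-18183847, plus strand: cgtgcgcggtGaggagcccgctaaggagcg

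The first base was A in 2 of these 7 starts, that of YTHDC1 and the second of IGF2BP2, and G in the other 5. The second start of IGF2BP2 lies downstream of the first by more than the 257 bp of that gene's 5′ region. Both starts therefore cannot lie in that region. Without the second start, A came first in YTHDC1 alone. Of all 35116 RefSeq starts, 44.4% had A there. The letters CA across the start were found in YTHDC1 alone, beside 29.6% of all starts. The letters GGAC, the core of the most common m6A motif, searched on the transcript strand in the first 50 bases, were found in ALKBH5 alone, beside 18.9% of all starts. A transcript in HEK293T cells may begin elsewhere than the annotated base, and neither letters found nor letters missing locate a methylated base.

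Among member regions in all 3 lists, the edges were the same in nearly every case. Each of the 13 regions in all 3 lists was made of 1 peak per list, and 12 (92.3%) kept their first and last base, beside 72.7% of the series' regions of that kind. The exception was the weak 3′ region of YTHDC1. How the peak caller set edges is unknown here, so identical edges may not measure agreement between the repeats. Scores did differ between the lists. In 6 member regions every list scored below the ceiling. Of these, 2 (33.3%) stayed within 2-fold, beside 52.4% of the 11131 regions of this kind in the series. Another 2 (33.3%), in IGF2BP2 and ALKBH5, were over 5-fold apart, beside 7.44%. The medians of the spread were 2.62-fold for the 6 member regions and 1.94-fold for all.

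MeRIP 1 gave the highest score in 5 of these 6 regions, beside 40.2% of all regions below the ceiling in all 3 lists. On the log2 scale, the score in MeRIP 2 over that in MeRIP 1 had a median of -0.77 over the 6 member regions and was negative in 6 of 6, beside a median of -0.15 and a negative ratio in 57.8% of all 11131. For MeRIP 3 over MeRIP 1 the median was -0.55 for the members, with 5 of 6 negative, and -0.04 for all, with 52.0% negative. A lower count of member peaks in MeRIP 2 went with this, and its part in the result was not tested. The whole list of MeRIP 2 was also the shortest, with 19851 peaks beside 21286 in MeRIP 1 and 20010 in MeRIP 3. With 6 regions these medians rest on few values.

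**Figure D3:**
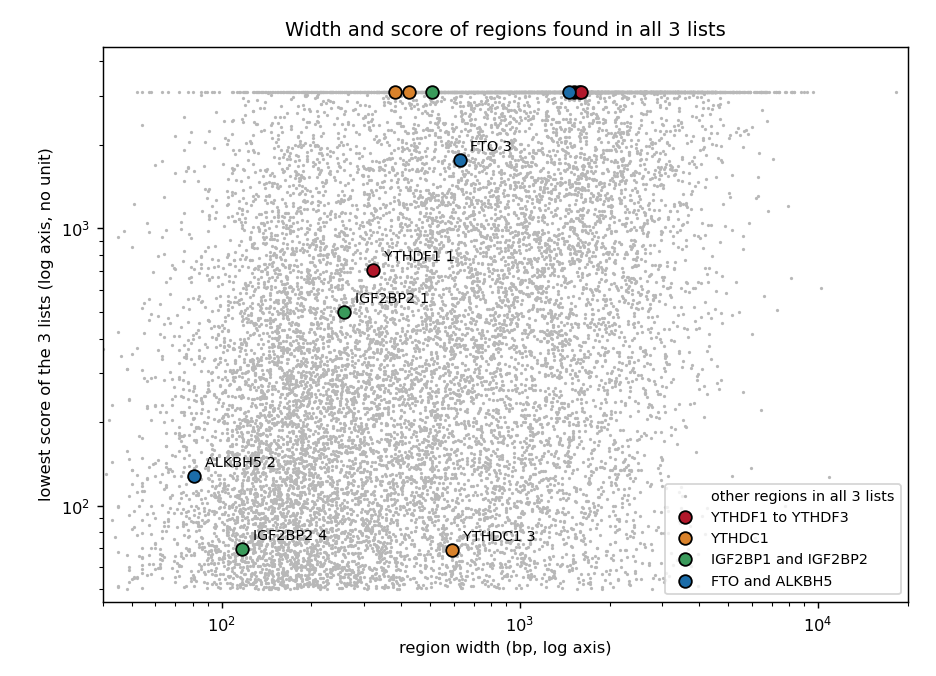
Width (bp, log axis) and lowest score over the 3 lists (log axis) of the regions found in all 3 lists, with the 13 member regions as large marks coloured by role and the other regions of the series as small grey points; marks below the ceiling are labelled by gene and region number. The 3 long YTHDF regions and that of ALKBH5 stand together on the ceiling at 1461 to 1598 bp, and the other 3 ceiling regions at 381 to 509 bp.

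Ordered by the highest score of each gene, YTHDF1, YTHDF2, YTHDF3, YTHDC1, IGF2BP1 and ALKBH5 were tied at the ceiling in all 3 lists, so their order is unknown. FTO came next, with 2461 ± 641 (SD, n = 3 lists), then IGF2BP2 with 810 ± 282, then YTHDC2 with 322 and 166 in its 2 lists, and IGF2BP3 last with no peak. The ranges of FTO and IGF2BP2 over the lists did not overlap, nor did those of IGF2BP2 and YTHDC2. The top value of FTO, 3036 in MeRIP 1, lay close under the ceiling.

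The bases under listed peaks gave another order. YTHDF1 had the most, 1949 ± 185 bp per list (SD, n = 3 lists), followed by YTHDF3 with 1598, YTHDF2 with 1584 and ALKBH5 with 1542, each the same in all 3 lists. YTHDC1 had 2067 bp in MeRIP 1, 1139 in MeRIP 2 and 1399 in MeRIP 3. IGF2BP2 had 857, 506 and 2739 bp in the same order, a mean of 1367 ± 1201, and the high value came with the 1885 bp peak of MeRIP 3. FTO had 745 ± 114 bp, IGF2BP1 509 bp in every list, and YTHDC2 389 bp in MeRIP 1 and MeRIP 3. As a share of the window, this ran from 0.182% for FTO to 9.37% for YTHDF1 among the genes with a peak.

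**Figure D4:**
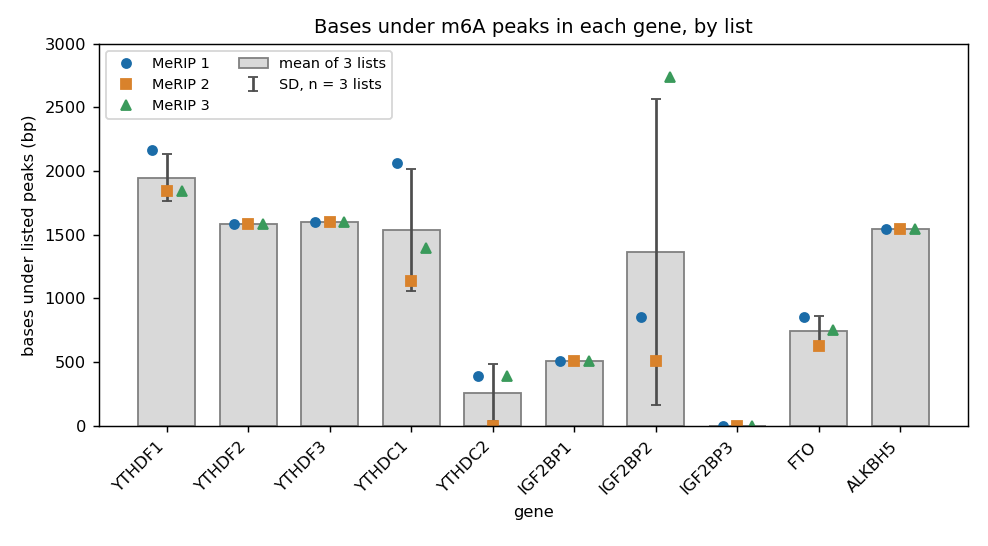
Bases under listed peaks in each gene, with bars for the mean of the 3 lists, error bars for the SD (n = 3 lists) and points for MeRIP 1, MeRIP 2 and MeRIP 3. YTHDF2, YTHDF3, IGF2BP1 and ALKBH5 have the same value in every list, while IGF2BP2 runs from 506 to 2739 bp.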

How the data were processed

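The submitters' processing notes name cutadapt 1.9.3, HISAT2 2.0.4 and hg19. The authors deposited 1 peak list per repeat, with a score for each peak and the word MACS in its name, while no source used here gives the caller's version or settings, or how the listed peaks were chosen. Depth is unknown from such lists. Columns of start, end and score were used as deposited, with starts counted from 1. Gene windows were given with the list of genes; they ran from 98.2% to 101.1% of the RefSeq gene length (GRCh38.p14), whose coordinates were not mixed with hg19. Scores above 3100 were set to 3100. A region is a chain of same-strand peaks sharing at least 1 bp. All 10 genes and all their regions are reported. Genes, windows and measures were chosen with earlier results of these data known. The methyltransferase genes were not analysed here, for want of an hg19 annotation. Values are descriptions beside the whole series, with no test. Python 3.11.15, NumPy 2.4.6, pandas 2.3.3 and Matplotlib 3.10.9 were used, and the merging was tested on simulated lists.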

Additional observations from a re-analysis of the deposited data

How the results depend on the processing

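No paired analysis was possible because a list combines the IP and input that share a number, and gives no value for either alone. Of the 23 member regions, 13 were in all 3 lists. This was the same with any overlap of peak and window, with strand ignored and with windows wider by 5 kb. These settings could not move it, for want of opposite-strand peaks inside the windows and same-strand peaks near them. The count was 10 of 12 with peaks not below the median score of their list, 9 of 18 with peaks of at most 1000 bp and 11 of 16 without IGF2BP2. With 1 repeat left out, a region had to be in both remaining lists, a looser rule. This held for 14 of 19 without MeRIP 1, 17 of 23 without MeRIP 2 and 13 of 22 without MeRIP 3. The settings without IGF2BP2, which holds the most regions, and with wider windows were chosen after seeing the data. Genes at the ceiling in all 3 lists were 6, and 3 when the median over a gene's peaks replaced the highest score. The mean over lists of the median score of member peaks was 1371, 2720 without IGF2BP2, 474 with peaks of at most 1000 bp, the lowest of the alternatives run, and 637 to 1772 when 1 repeat was left out, with 637 without MeRIP 2. The median region width was 381 bp, 466.5 bp without IGF2BP2, and 327.5 to 389 bp when 1 repeat was left out. Regions with identical edges were 12 of 13, also when edges within 10 bp were counted as identical. They were 10 of 10 with peaks not below the median score of their list. With 1 repeat left out, only the remaining lists had to match. This held for 13 of 14 regions without MeRIP 1, 15 of 17 without MeRIP 2 and 13 of 13 without MeRIP 3.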

Other observations

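No peak of any list lay on the opposite strand inside the 10 windows, against 54 on the same strand. The same count was not made for other genes, so it was not tested whether this is particular to these. Within 10 kb outside the windows there was no peak on the same strand and 1 on the opposite strand, a 298 bp peak upstream of FTO at chr16:53729910-53730207 on the minus strand, with a score of 81.8 in MeRIP 3.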
